A study of Mus musculus with 8 samples.

Results

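The diet effect described here is the difference in left ventricular transcripts between mice fed SFA-EAA and mice fed SFA, averaged over hearts that had undergone transverse aortic constriction (TAC) and hearts that had undergone a sham operation. All 8 libraries of the series entered it, 4 from SFA-EAA mice set against 4 from SFA mice. SFA is named by the submitters as a low fat diet, and in SFA-EAA 93.5% of the casein, the milk protein of the chow, was exchanged for essential amino acids in free form. All mice were male C57BL/6N, 8 weeks old at the start, carried no engineered allele according to the labels, and gave polyadenylated RNA of the left ventricle 4 weeks after the operation. The 4 groups were TAC SFA-EAA, TAC SFA, sham SFA-EAA and sham SFA, with 2 libraries each, written below with the numbers 1 and 2 of their titles. TAC narrows the aorta with surgery, so that the left ventricle pumps against a raised pressure, and the sham operation leaves the aorta open. The labels do not say whether 2 libraries of a group are 2 mice or whether tissue was pooled, so all p-values measure the spread between these libraries, which may be technical.

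Essential amino acids are those that mammals cannot make, and the branched-chain amino acids leucine, isoleucine and valine are among them. Heart muscle degrades branched-chain amino acids in its mitochondria, by a transaminase and then a dehydrogenase complex that a kinase switches off and a phosphatase switches on. The adult heart draws most of its ATP from oxidation of fatty acids, and under pressure overload it deposits collagen between its myocytes, re-expresses fetal genes and lowers transcripts of oxidative enzymes. Collagen is made mainly by cardiac fibroblasts, is cut and folded by a dedicated set of enzymes and is crosslinked outside the cell.

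The deposited values are signals per gene that the authors had normalized between libraries, and they summed to 6134490 to 6298743 per library under SFA-EAA, against 5136441 to 5956103 under SFA, and 15264 to 15844 genes reached a value of 1 under SFA-EAA, against 14202 to 14776 under SFA. The smallest value above 0 was 0.0021 to 0.0175 in SFA-EAA libraries, against 0.2274 to 0.785 in SFA libraries, and 1977 to 2442 genes lay above 0 but under 0.2 in each SFA-EAA library, against 0 in each SFA library. Low values of the diets are therefore not on one footing, and the part of this in the calls of low genes was not tested; of the 199 genes called below, 3, all lower, had a value under 1 in any library and 6, all lower, a value under 5. The ventricular light chain gene Myl2 lay between 46193.8 and 65970.6 in all 8 libraries. TAC SFA-EAA 1 stood apart from its group, since its rank correlation was highest with sham SFA 2 (0.976) and was 0.922 with TAC SFA-EAA 2. Across 8032 well-measured genes, the deviation of a library from the mean of the gene fell with the GC content of the transcript in TAC SFA-EAA 2 (Spearman rho -0.76) and in sham SFA-EAA 1 and 2 (-0.65 and -0.45). It increased with GC content in TAC SFA-EAA 1 (0.47), in TAC SFA 1 and 2 (0.36 and 0.47) and in sham SFA 1 and 2 (0.53 and 0.56). The shared diet effect therefore ran along GC content, with a rho of -0.73 across the same genes, which are not independent of one another. Once a smooth curve on GC content had been removed from each library, this rho was -0.02. The rho of the shared effect with gene length was then -0.2, against 0.04 as deposited, so shorter genes tended to come out higher. Calls after correction for both are given in the closing section. Mitochondrially encoded genes held 33.6% to 39.5% of the values in SFA-EAA libraries and 22.1% to 30.3% in SFA libraries. The part of these differences in the results below was not tested beyond the GC-corrected values given beside them.

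Of 16432 tested genes, 80 were higher (0.487%) and 119 lower (0.724%) under SFA-EAA at a limma adjusted p under 0.05, together 1.21%. All 199 had the same sign in TAC and in sham hearts, against 65.9% of all tested genes. For 195 of the 199, 79 higher and 116 lower, the SFA-EAA and SFA libraries did not overlap in TAC hearts and did not overlap in sham hearts, which held for 10.3% of all tested genes in the higher and 9.67% in the lower direction. Same sign and separate libraries follow in part from the test itself. It selects genes by the mean of the TAC and sham effects against the spread within groups, so these counts are a description and no separate support. The called log2 differences were between 0.4 and 2.2 in size, and for 149 of the 199 genes the difference was larger in TAC than in sham hearts. For 32 of the 199, TAC SFA-EAA 1, the library that stood apart, lay nearer to the mean of the TAC SFA libraries than to TAC SFA-EAA 2. The median difference over all tested genes was -0.03. Genes that passed as higher had a median transcript GC content of 43.8% and those that passed as lower 56.6%, against 49.6% over all tested genes.

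With GC-corrected values, 262 genes passed as higher (1.59%) and 168 as lower (1.02%) in limma, so that 60.9% of the called genes were higher, against 40.2% as deposited. Of the genes called as deposited, 65 higher and 79 lower ones were called again, and 0 changed direction. Among the 430 GC-corrected calls, 422 had the same sign in TAC and in sham hearts, against 58.6% of all tested genes. Which genes pass depended on single libraries. As deposited, limma called 1 higher and 2 lower genes without TAC SFA 1, and 0 in both directions without TAC SFA 2 or without any one of the 4 sham libraries, with 2531 to 3173 genes then at an unadjusted p under 0.05. It called 1433 higher and 2149 lower genes without TAC SFA-EAA 1, and 248 and 361 without TAC SFA-EAA 2. GC-corrected calls were 4 higher and 9 lower without sham SFA 1, and 39 to 518 and 49 to 520 without any other library.

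**Figure D1:**
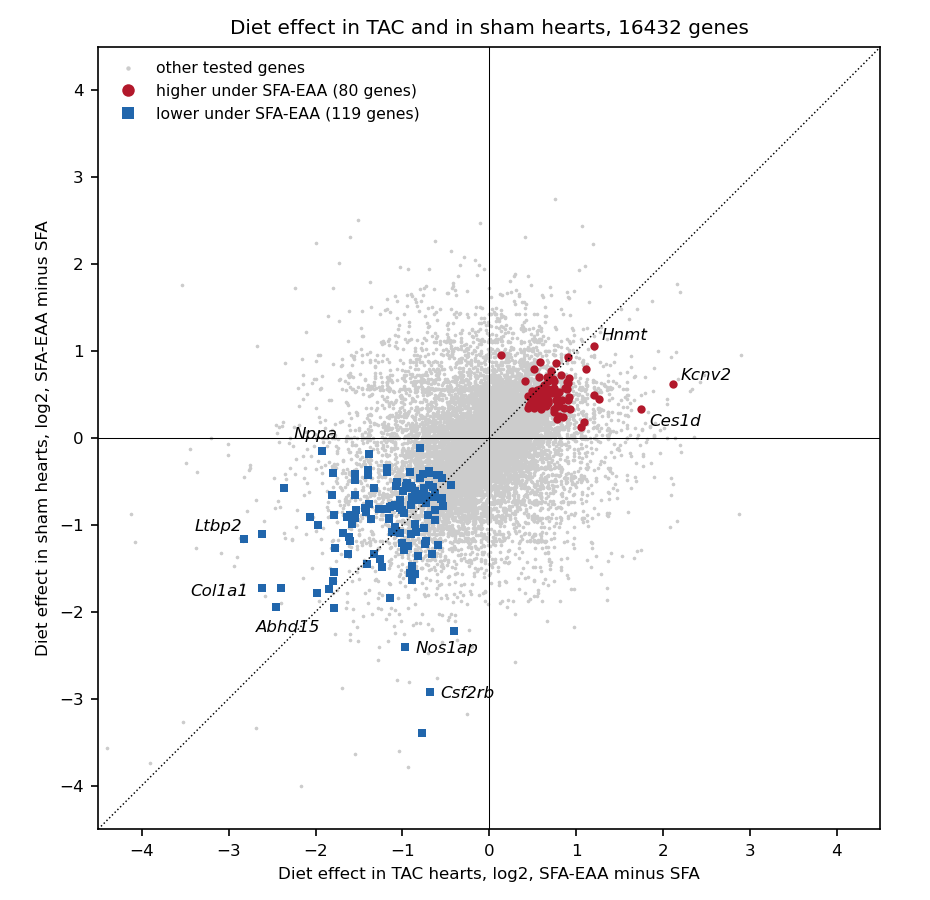
Difference between SFA-EAA and SFA on the log2(value + 1) scale in TAC hearts (horizontal axis) and in sham hearts (vertical axis) for each tested gene, with genes that passed as higher in red circles, those that passed as lower in blue squares and the line of equal effects dotted. The 80 higher genes lie at the upper right and the 119 lower genes at the lower left. 2 genes lie outside the axes.

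Genes of the extracellular matrix held the largest share of lower calls among the lists examined. All lists were chosen with earlier results of these data known, so their shares of calls may be raised by that choice. Of 55 tested matrix genes, 22 passed as lower and 0 as higher, against 0.724% lower calls over all genes, and 53 had a negative log2 difference. The median of the list was -0.98, a 1.97-fold lower level under SFA-EAA, with medians of -1.33 in TAC hearts and -0.52 in sham hearts. For 31 of the 55 the diets did not overlap in either operation, all in the lower direction, against 9.67% of all tested genes. With GC-corrected values 25 passed as lower and 0 as higher, against 1.02% lower calls over all genes, and the median was -0.75. In bulk tissue, fewer fibroblasts and less matrix RNA per fibroblast cannot be told apart.

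Fibrillar collagens, the rods that give the ventricle its tensile strength, were among the genes that passed, and Col1a1 had the largest difference of these 22. Type I collagen is a trimer of the products of Col1a1 and Col1a2, and type III collagen of the product of Col3a1. The 250 bases before the RefSeq start of Col1a2 (chr6:4505368-4505617, plus strand, GRCm38.p6) and of Col3a1 (chr1:45311288-45311537, plus strand) are shown as the upstream regions of collagens that were lower together, with those of Cox7b (chrX:106015450-106015699, plus strand), a respiratory gene that moved the other way. Capitals mark the letters CCAAT, the element named after those letters, searched for on both strands.
Col1a2: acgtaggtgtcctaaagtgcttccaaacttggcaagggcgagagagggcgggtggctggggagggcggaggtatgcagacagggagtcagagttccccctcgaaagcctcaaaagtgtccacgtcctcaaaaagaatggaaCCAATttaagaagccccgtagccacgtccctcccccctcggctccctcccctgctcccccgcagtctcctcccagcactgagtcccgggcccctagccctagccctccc
Col3a1: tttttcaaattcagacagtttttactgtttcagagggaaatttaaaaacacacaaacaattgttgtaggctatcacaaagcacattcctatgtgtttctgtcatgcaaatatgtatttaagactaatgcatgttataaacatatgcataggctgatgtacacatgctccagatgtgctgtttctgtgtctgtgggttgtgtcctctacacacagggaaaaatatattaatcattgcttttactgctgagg
Cox7b: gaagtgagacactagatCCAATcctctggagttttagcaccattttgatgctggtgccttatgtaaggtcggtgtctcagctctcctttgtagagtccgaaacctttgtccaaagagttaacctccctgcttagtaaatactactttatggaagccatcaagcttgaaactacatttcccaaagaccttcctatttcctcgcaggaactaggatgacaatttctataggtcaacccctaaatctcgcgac
The letters occurred once in the window of Col1a2, once in that of Cox7b and 0 times in that of Col3a1. Promoter sequences were matched for 19 of the 22 matrix genes that passed, and 7 of them (36.8%) held CCAAT on either strand, against 39.7% of 11594 tested genes with a promoter sequence, 37.5% of all 27025 genes with one and 3 of 8 (37.5%) respiratory chain genes that passed as higher.

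Col1a1 (ENSMUSG00000001506, chromosome 11, 94936224 to 94953042, GRCm38) had values of 374.5 and 165 in TAC SFA-EAA hearts, against 1070 and 2190.2 in TAC SFA hearts. In sham hearts its values were 139 and 162 under SFA-EAA, against 537 and 457.5 under SFA. The diets did not overlap in either operation, and the shared effect was a 4.49-fold lower level (log2 difference -2.17, SE 0.28, adjusted p = 0.0254; -1.66 and adjusted p = 0.0019 after GC correction). Col1a2 (ENSMUSG00000029661, chromosome 6, 4504814 to 4541544) stood at 549 and 465.8 in TAC SFA-EAA, against 1518.8 and 2579.9 in TAC SFA, and at 352.9 and 310.2 in sham SFA-EAA, against 734.9 and 598.8 in sham SFA. Both TAC SFA-EAA libraries thus lay below both sham SFA libraries. Col1a2 was 2.8-fold lower (log2 difference -1.48, SE 0.16, adjusted p = 0.0254), and its GC-corrected log2 difference was -1.2 (adjusted p = 0.00251). Col3a1 (ENSMUSG00000026043, chromosome 1, 45311538 to 45349706) had 1013.9 and 1395.8 in TAC SFA-EAA, against 2761.9 and 3368.2 in TAC SFA, and 525.6 and 657 in sham SFA-EAA, against 1345.2 and 929.8 in sham SFA. It was 2.21-fold lower without overlap (log2 difference -1.14, SE 0.15, adjusted p = 0.026). The type V chains, which start collagen fibrils, passed too, with log2 differences of -1.28 for Col5a1, -0.95 for Col5a2 and -1.33 for Col5a3 (adjusted p = 0.0254, 0.0425 and 0.0254). After GC correction Col5a1 passed at -0.83, and Col5a3, at -0.65, had an adjusted p of 0.0532 and did not pass.

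**Figure D2:**
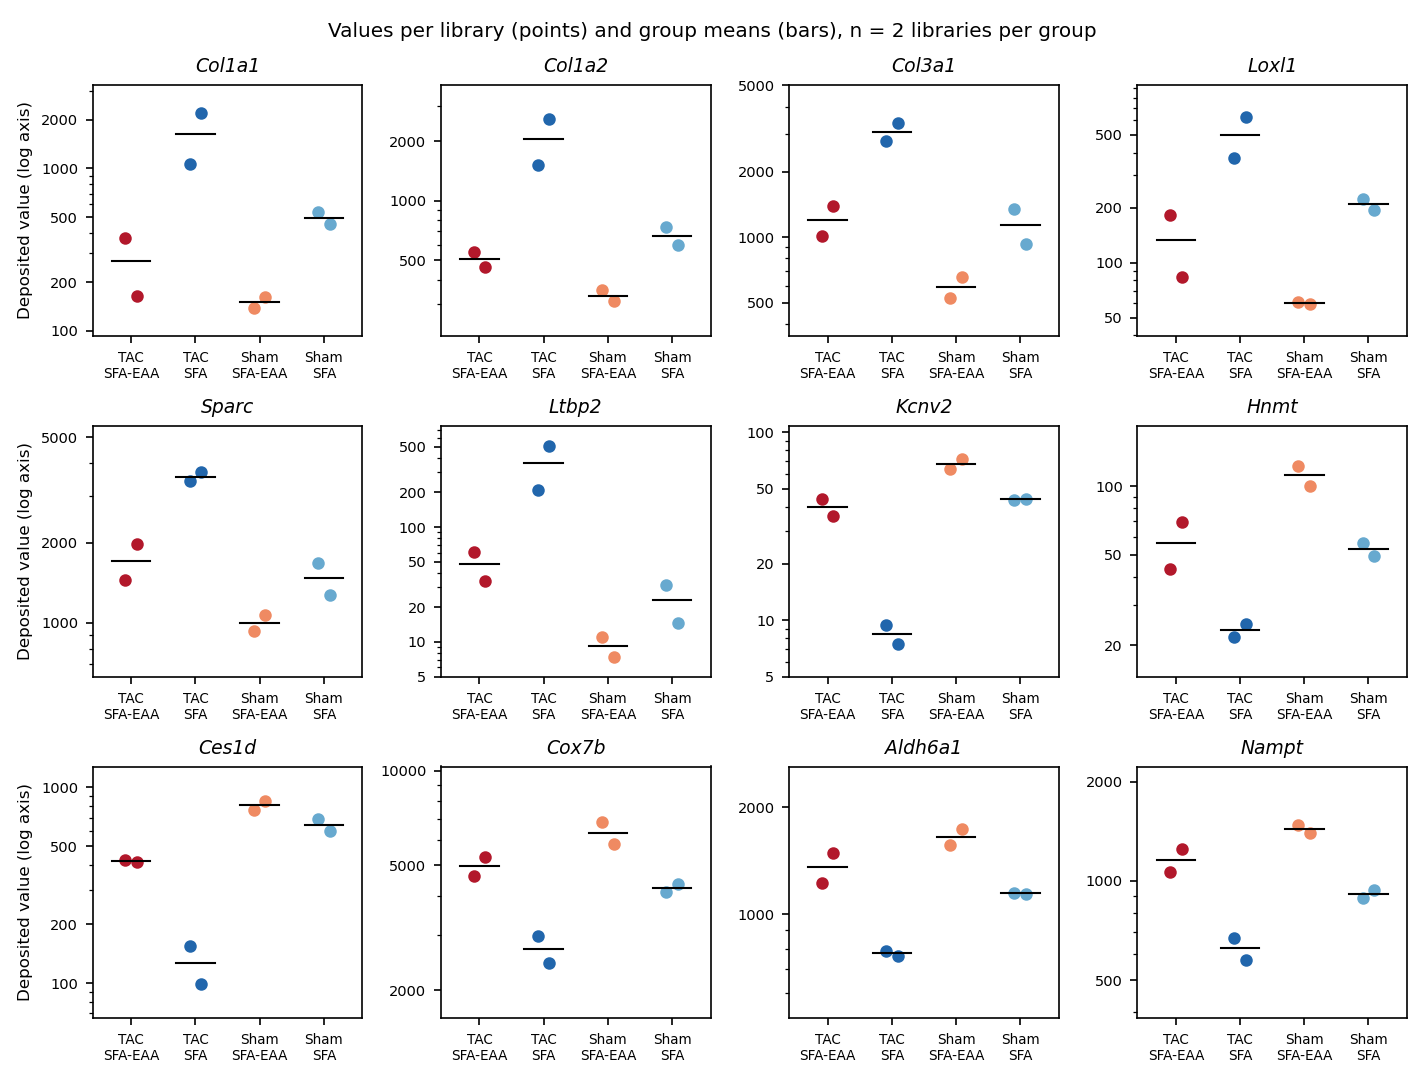
Deposited values (vertical log axes) of 12 genes in each library, with the groups TAC SFA-EAA, TAC SFA, sham SFA-EAA and sham SFA from left to right, points for libraries and bars for group means (n = 2 libraries each). For Col1a1 the TAC SFA-EAA libraries lie at 374.5 and 165 and the TAC SFA libraries at 1070 and 2190.2, and for Cox7b the order is the opposite one.

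Of the other collagens in the list, 7 passed as lower. The basement membrane chains Col4a1 and Col4a2, neighbours on chromosome 8 with a shared promoter, had log2 differences of -0.97 and -1.04 (adjusted p = 0.0254 and 0.028), and of -0.55 and -0.42 after GC correction, where both passed and Col4a2 overlapped between the diets. The type VI chains Col6a1 and Col6a2, which form beaded filaments around cells, had -1.12 and -1.4 (both adjusted p = 0.0254). Col15a1, a collagen of the basement membrane zone, had values of 417.7 and 295.6 in TAC SFA-EAA, against 959.2 and 1184.5 in TAC SFA, and 207.7 and 233.7 in sham SFA-EAA, against 460.7 and 359.4 in sham SFA. None of these values overlapped between the diets within an operation, and the log2 difference was -1.24 (SE 0.14, adjusted p = 0.0254). Col16a1 and Col18a1 also passed, at -1.39 and -1.38 (adjusted p = 0.0431 and 0.049), but not after GC correction (-0.72 and -0.76, adjusted p = 0.0521 and 0.0572).

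Members of the list that passed also included Loxl1 and Adamts2. Loxl1, a lysyl oxidase that crosslinks elastin and collagen (ENSMUSG00000032334, chromosome 9, 58287738 to 58313186), had values of 181.5 and 83 in TAC SFA-EAA, against 375.5 and 629.1 in TAC SFA, and 60.7 and 59.2 in sham SFA-EAA, against 223.9 and 193.5 in sham SFA. Its level was 3.67-fold lower without overlap (log2 difference -1.88, SE 0.24, adjusted p = 0.0254; -1.23 and adjusted p = 0.0022 after GC correction). Adamts2, which removes the N-terminal propeptide of procollagen, had a log2 difference of -1.04 (adjusted p = 0.026). Single genes outside the list were named after their values had been seen, with no count of such genes behind them. Pcolce, an enhancer of the C-terminal cleavage, Serpinh1, the chaperone that folds procollagen, and Plod1, a lysyl hydroxylase of collagen, had log2 differences of -1.13, -1.06 and -0.5 (adjusted p = 0.0254, 0.0254 and 0.0494). Mrc2, a receptor that takes up collagen fragments for degradation, had -1.04 (adjusted p = 0.0325) and -0.55 after GC correction. Adamts2, Pcolce, Serpinh1, Plod1 and Mrc2 all passed after GC correction.

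The other 7 matrix genes that passed had varied roles. Ltbp2, which associates with microfibrils (ENSMUSG00000002020, chromosome 12, 84783212 to 84876532), had 60.7 and 34 in TAC SFA-EAA, against 209.4 and 509.7 in TAC SFA, and 11 and 7.38 in sham SFA-EAA, against 31.5 and 14.5 in sham SFA. The diets did not overlap, and the log2 difference was -1.99 (SE 0.35, adjusted p = 0.0472). After GC correction Ltbp2 passed at -1.52 (adjusted p = 0.0226), with -2.4 in TAC and -0.63 in sham hearts, and the diets overlapped. Emilin1, an elastic fibre glycoprotein, had -1.72 (adjusted p = 0.0472) and -1.07 after GC correction. Ltbp4, a binding protein of latent TGF-beta outside the list that was named after its values had been seen, had -1.48 (adjusted p = 0.0494) and -0.76 after GC correction, and both passed there. Tgfb1, the growth factor that drives collagen synthesis in fibroblasts, had a log2 difference of -0.98 (adjusted p = 0.0481), with -0.74 in TAC and -1.22 in sham hearts. Sparc, a collagen-binding matricellular protein, had 1444.9 and 1976 in TAC SFA-EAA, against 3410.9 and 3690.8 in TAC SFA, and 934.9 and 1066.6 in sham SFA-EAA, against 1673.4 and 1272.8 in sham SFA (log2 difference -0.81, SE 0.13, adjusted p = 0.0402). The proteoglycan gene Bgn passed at -0.98 (adjusted p = 0.0353), as did Fbln2, a fibulin, at -0.65 and the membrane protease gene Mmp14 at -0.83 (adjusted p = 0.0472 and just under 0.05). Fbln2 and Mmp14 did not pass after GC correction (adjusted p = 0.19 and 0.0532), and Fbln2 then had -0.28 and overlapped.

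Not all matrix genes passed as lower. Dcn, the small proteoglycan decorin of resident fibroblasts, had 2339.5 and 2902.4 in TAC SFA-EAA, against 2691.5 and 4255.2 in TAC SFA, and 3267.7 and 2684.3 in sham SFA-EAA, against 2438.3 and 2426.2 in sham SFA. Its diets overlapped in TAC hearts, and in sham hearts it was higher under SFA-EAA without overlap. The shared log2 difference of Dcn, which averages over both, was -0.05 and did not pass (adjusted p = 0.878), nor did its -0.39 after GC correction (adjusted p = 0.136). Postn, the periostin of activated fibroblasts, had 463 and 1112.6 in TAC SFA-EAA, against 1777.2 and 1727 in TAC SFA, but overlapped in sham hearts, with a log2 difference of -0.68 that did not pass (adjusted p = 0.21). It passed after GC correction at -1.05 (adjusted p = 0.0249). Fn1, fibronectin, did not overlap in either operation yet did not pass (log2 difference -0.89, adjusted p = 0.061).

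**Figure D3:**
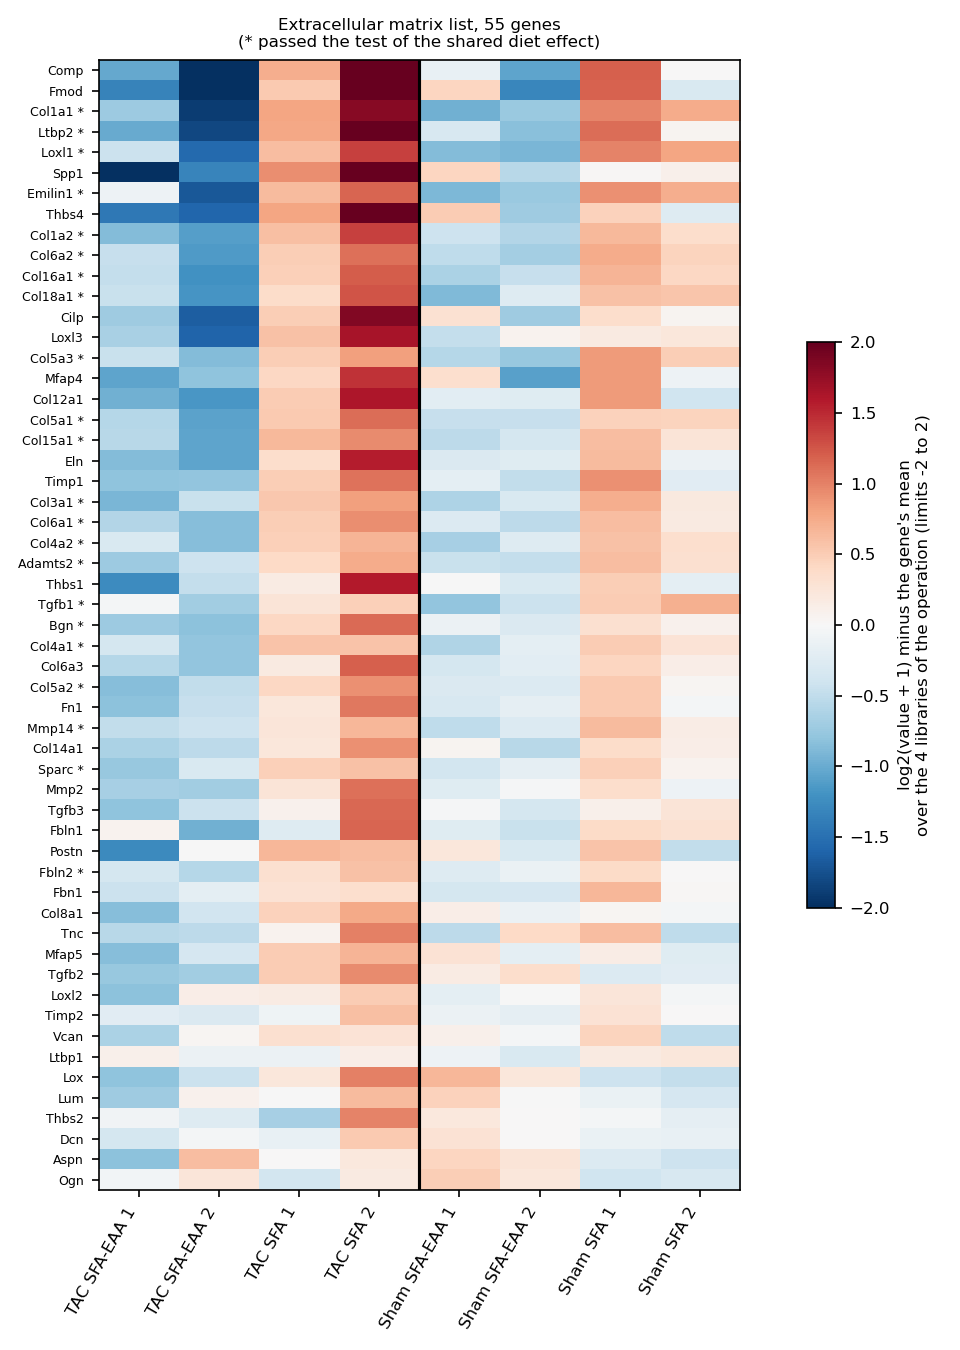
Each matrix gene (rows, ordered by shared diet effect) in each library (columns), coloured by log2(value + 1) minus the mean of the gene over the 4 libraries of the same operation, limited to between -2 and 2, with the SFA-EAA libraries left of the SFA libraries within TAC (left of the line) and sham. Asterisks mark the 22 genes that passed. Within each operation the columns of TAC SFA 2 and sham SFA 1 hold the most red.

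The SFA libraries of a group did not contribute evenly. Without overlap between the diets, the highest value of a lower gene must lie in an SFA library. The same holds for the lowest value of a higher gene. Counts of this kind among called genes, here and below, therefore compare the SFA libraries of an operation only. They were not made over all tested genes. TAC SFA 2 had the highest value of the 4 TAC libraries for 51 of the 55 matrix genes and for 22 of the 22 that passed. Sham SFA 1 had the highest value of the 4 sham libraries for 40 of the 55 and for 21 of the 22. These were also the libraries with most transcripts of atrial myocyte proteins. The atrial light chain gene Myl7 had 3.07 and 1.28 in TAC SFA-EAA, against 11.8 and 321.9 in TAC SFA, and 43 and 2.71 in sham SFA-EAA, against 621.3 and 35.8 in sham SFA. The other atrial light chain gene, Myl4, had 629.1 in TAC SFA 2 and 631.3 in sham SFA 1, and sarcolipin, Sln, had 128.5 and 135.1 in the same libraries, against 0.01 to 3.1 for Sln in the other 6. The 9 tested atrial markers (of 10 listed, the other one at 0 in all libraries) summed to 7851 and 5943 in TAC SFA-EAA, against 13800 and 26870 in TAC SFA, and to 4008 and 4019 in sham SFA-EAA, against 6395 and 4562 in sham SFA. Without both libraries the median of the matrix list was -0.7 and 49 of its 55 genes were negative. Over all tested genes the median was -0.01 and 8360 of 16432 were negative. The 22 that had passed were all negative, with a median of -1.02, which is no separate support, since the remaining libraries had helped to select them. Limma then called 0 genes of any kind, with 1298 at an unadjusted p under 0.05, from a single SFA library in each operation.

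Of 15 fibroblast markers, 6 of which are also matrix genes of the list above, 5 passed as lower and 0 as higher, against 0.724% lower calls over all genes, with a median of -0.53. The same 5 passed after GC correction, against 1.02% lower calls over all genes, with a median of -0.39. Of the 5, 3 were the collagen genes Col1a1, Col1a2 and Col3a1. The other 2 were Serpinf1, an antiangiogenic secreted protein, at -1.23 (adjusted p = 0.0303), and the intermediate filament gene Vim at -0.74 (adjusted p = 0.0386). The fibroblast receptor gene Pdgfra had values of 136.5 and 157.5 in TAC SFA-EAA, against 217.3 and 272.6 in TAC SFA, and 177 and 146 in sham SFA-EAA, against 139.1 and 165.2 in sham SFA. It was lower in TAC and overlapped in sham hearts, and its shared log2 difference of -0.32 did not pass (adjusted p = 0.173). Tcf21, a transcription factor of resident fibroblasts, had -0.41 and did not pass (adjusted p = 0.364). The marker sums were 12160 and 10510 in TAC SFA-EAA, against 16010 and 25810 in TAC SFA, and 11420 and 11150 in sham SFA-EAA, against 15160 and 13320 in sham SFA.

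Of the 12 largest lower effects, 4 belonged to the matrix list (Col1a1, Ltbp2, Loxl1 and Emilin1) and the other 8 to other functions. Abhd15, which encodes a lipase-like protein that takes part in the control of lipolysis in fat cells, had 3.1 and 1.45 in TAC SFA-EAA, against 18.1 and 14.7 in TAC SFA, and 1.22 and 1.19 in sham SFA-EAA, against 6.79 and 8.25 in sham SFA. This was a 4.59-fold lower level (log2 difference -2.2, SE 0.32, adjusted p = 0.0353), the largest of the called genes. Hvcn1, a voltage-gated proton channel of immune cells, had 3.1 and 2.58 in TAC SFA-EAA, against 17.1 and 21.6 in TAC SFA, and 3.72 and 1.38 in sham SFA-EAA, against 12.3 and 8.26 in sham SFA (adjusted p = 0.0431). Gadd45g, a stress-inducible growth arrest gene, Csf2rb, the common beta chain of cytokine receptors, and Nos1ap, an adaptor of neuronal nitric oxide synthase, had log2 differences of -1.87, -1.8 and -1.68 (adjusted p = 0.0494, 0.0494 and 0.0481). The other 3 genes of this set encode secreted or matrix-building proteins: Frzb, a secreted inhibitor of Wnt signalling, at -1.66, Chpf, a chondroitin-polymerizing factor, at -1.79, and Ssc5d, a secreted scavenger receptor protein, at -1.52 (adjusted p = 0.049, 0.0472 and 0.049). Ssc5d alone among these 8 did not pass after GC correction (-0.9, adjusted p = 0.051). Csf2rb had 0.14 in sham SFA-EAA 2, in the range under 0.2 that SFA libraries do not hold, and Abhd15 and Hvcn1 stayed under 5 in all SFA-EAA libraries. By the same rule with GC-corrected values, Angptl7, a secreted angiopoietin-like protein, and Aldh1a3, which makes retinoic acid, came first, at -2.29 and -2.11 (GC-corrected adjusted p = 0.0316 and 0.0312). Neither passed as deposited (adjusted p = 0.0647 and 0.0559). Aldh1a3 had 0.01 and 1.3 in TAC SFA-EAA, against 12.4 and 8.61 in TAC SFA. In sham hearts it had 5.86 and 1.34 under SFA-EAA, against 10.5 and 8.28 under SFA. Its 0.01 also lies in the range under 0.2. Angptl7 had 7.17 and 2.67 in TAC SFA-EAA, against 28.2 and 108.3 in TAC SFA. In sham hearts it had 1.57 and 7.09 under SFA-EAA, against 12.2 and 8.2 under SFA.

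Of 24 tested hypertrophy and fetal genes, 5 passed as lower and 0 as higher, against 0.724% lower calls over all genes, 22 were negative, and the median was -0.96 in TAC and -0.22 in sham hearts (shared median -0.58, GC-corrected -0.45, with 5 lower calls, against 1.02% over all genes). The list holds the atrial transcripts Nppa, Myl4 and Myl7, and its lowest difference, -3.98, is that of Myl7. TAC SFA 2, one of the libraries of high Myl7, had the highest value of the 4 TAC libraries for 17 of the 24 genes and for 3 of the 5 that passed, and sham SFA 1 the highest of the 4 sham libraries for 11 and for 4. The part of this in the difference of the list was not tested. Uck2, a kinase of pyrimidine salvage, had 267.9 and 256.9 in TAC SFA-EAA, against 621.4 and 569.7 in TAC SFA, and 165.7 and 144.4 in sham SFA-EAA, against 216 and 191.6 in sham SFA. Its diets did not overlap in either operation (log2 difference -0.79, SE 0.1, adjusted p = 0.0254). After GC correction Uck2 passed at -0.61 (adjusted p = 0.0098), with -1.02 in TAC and -0.2 in sham hearts, and the diets overlapped. Rcan1, a target and regulator of calcineurin, and Synpo2l, a Z-disc protein gene, were at -0.89 and -0.76 (adjusted p = 0.0391 and 0.0425), and neither passed after GC correction (adjusted p = 0.0511 and 0.0791), where Synpo2l had -0.42 and overlapped. Nppa, the gene of atrial natriuretic peptide, had 4436.9 and 3343.3 in TAC SFA-EAA, against 10346.3 and 20405.6 in TAC SFA, but 1024.9 and 1045.6 in sham SFA-EAA, against 1299.5 and 1013 in sham SFA. It passed as a shared effect (log2 difference -1.03, SE 0.2, adjusted p = 0.0494), although its libraries overlapped in sham hearts, with log2 differences of -1.92 in TAC and -0.15 in sham hearts. After GC correction Nppa passed at -0.78 (adjusted p = 0.0236), with opposite signs of -1.69 in TAC and 0.14 in sham hearts. Its 10346.3 and 20405.6 in TAC SFA hearts make up most of the atrial marker sums given above, and Myl7, Myl4 and Sln did not pass. Ctgf, connective tissue growth factor, likewise passed with an overlap in sham hearts (log2 difference -0.78, -1.38 in TAC and -0.18 in sham hearts, adjusted p = 0.0472). Nppb and the fetal myosin gene Myh7 had -0.23 and -1.14 and did not pass (adjusted p = 0.307 and 0.0869).

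Lower calls also reached cytoskeletal and adhesion genes, vascular genes and single immune genes, which belong to no list and were named after their values had been seen. Tln1, which links integrins to actin, Zyx, a focal adhesion protein gene, and Flnc, the filamin of muscle, had log2 differences of -0.73, -0.87 and -0.8 (adjusted p = 0.0494, 0.0303 and 0.0472). Ace, the angiotensin-converting enzyme of the endothelium, had 288.4 and 252 in TAC SFA-EAA, against 607.1 and 831.9 in TAC SFA, and 210.9 and 224.1 in sham SFA-EAA, against 317.4 and 271.3 in sham SFA. The diets did not overlap, with a log2 difference of -0.91 (SE 0.12, adjusted p = 0.0254). The acute phase gene Serpina3n and H2-Ab1, a class II antigen-presenting chain, had -1.1 and -1.31 (adjusted p = 0.049 and 0.0494). H2-Ab1 overlapped in TAC hearts, where its log2 difference was -0.41, against -2.22 in sham hearts. These 6 genes passed after GC correction, with smaller differences of -0.36 for Tln1, -0.52 for Zyx and -0.33 for Flnc. From the lists, Sod3, the extracellular superoxide dismutase, passed at -0.92 (adjusted p = 0.0471), as did Cyr61, a matricellular immediate early gene, at -0.63 (adjusted p = 0.0481), and both passed after GC correction. The pericyte receptor gene Notch3 passed at -0.78 (adjusted p = 0.049) and did not after GC correction (-0.23, adjusted p = 0.236). By limma, 0 of 15 macrophage, 0 of 15 endothelial and 0 of 13 lymphocyte markers passed in either fit. As deposited 5, 7 and 0 were at an unadjusted p under 0.05, against 3808 of 16432 over all tested genes. The macrophage markers had a median of -0.2, and 6 of the 15 were lower without overlap in both operations, against 9.67% of all tested genes. Their sums were 2007 and 2582 in TAC SFA-EAA, against 2530 and 2204 in TAC SFA, and 1457 and 1594 in sham SFA-EAA, against 1959 and 1480 in sham SFA, and overlapped in both operations. Of 9 red blood cell markers 0 passed in limma in either fit, with 4 at an unadjusted p under 0.05, all lower, but all 9 were negative, with a median of -0.52 (-0.39 after GC correction), close to the -0.53 of the fibroblast markers. Their sums were 3933 and 1174 in TAC SFA-EAA, against 3363 and 3702 in TAC SFA, and 1684 and 2105 in sham SFA-EAA, against 2608 and 2676 in sham SFA. The part of these cells in the lower matrix values was not tested.

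In the other direction, genes of mitochondrial energy metabolism were the most numerous among the lists. Of 76 tested nuclear-encoded genes of oxidative phosphorylation, 10 passed as higher and 0 as lower, against 0.487% higher calls over all genes, with a median of 0.14, 0.28 in TAC and 0.01 in sham hearts. With GC-corrected values 23 passed as higher and 0 as lower, against 1.59% higher calls over all genes, with a median of 0.2. These calls were not corrected for the trend with gene length given above. The list had 51 positive and 25 negative members, so the called genes were not the whole pathway. For 32 of the 76 the diets did not overlap in either operation in the higher direction, against 10.3% of all tested genes. TAC SFA 2, the TAC library with most atrial transcripts, had the lowest value of the 4 TAC libraries for 10 of the 10 called genes, and sham SFA 1 had the lowest of the 4 sham libraries for 8 of them. Of 14 cardiomyocyte markers 0 passed in limma, with a median of -0.05. At an unadjusted p under 0.05 were 4 of them, against 3808 of 16432 over all tested genes.

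Cox7b, a subunit of cytochrome c oxidase (ENSMUSG00000031231, chromosome X, 106015700 to 106022450), had 4609.1 and 5308.9 in TAC SFA-EAA, against 2980.2 and 2444.1 in TAC SFA, and 6866.1 and 5838 in sham SFA-EAA, against 4121 and 4362.6 in sham SFA. The diets did not overlap, and both TAC SFA-EAA values lay above both sham SFA values. The level was 1.65-fold higher (log2 difference 0.73, SE 0.1, adjusted p = 0.0303; 0.5 and adjusted p = 0.008 after GC correction). The oxidase subunits Cox7a2 and Cox6c had 0.5 and 0.55 (adjusted p = 0.0472 and 0.049). The complex I subunits Ndufa5 and Ndufs4 had 0.64 and 0.61 (adjusted p = 0.0466 and 0.0472), and Ndufa4, a protein first assigned to complex I and now to the oxidase, had 0.67 (adjusted p = 0.0472; 0.39 after GC correction). Uqcrh and Uqcrb of complex III had 0.51 and 0.5 (adjusted p = 0.0481 and 0.0494), and Atp5j and Atp5c1 of the ATP synthase had 0.55 and 0.46 (adjusted p = 0.0481 and 0.0494). Of these 10, Uqcrb did not pass after GC correction (0.23, adjusted p = 0.123). Cox7a1, the muscle form of an oxidase subunit, passed with GC-corrected values (0.54, adjusted p = 0.00558) and not as deposited (0.28, adjusted p = 0.148). Outside the list, Usmg5, a small membrane subunit of the ATP synthase, had 2075.8 and 2752.9 in TAC SFA-EAA, against 1425.1 and 1113.2 in TAC SFA, and 3305.8 and 2735.6 in sham SFA-EAA, against 1776.5 and 1943.7 in sham SFA (1.75-fold higher, SE 0.12 on the log2 scale, adjusted p = 0.0386). Cycs, cytochrome c itself, named after its values had been seen, had 0.62 (adjusted p = 0.0494) and 0.36 after GC correction.

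The 15 transcripts of the mitochondrial genome had a median of 0.58, 0.79 in TAC and 0.39 in sham hearts, and 14 were positive. In limma 0 passed in either fit. As deposited 9 were at an unadjusted p under 0.05, all higher, against 3808 of 16432 over all tested genes in either direction. For 6 the diets did not overlap in either operation, all in the higher direction, against 10.3% of all tested genes. The median was 0.22 after GC correction, and these transcripts had a median GC content of 36%. With these genes left out and the libraries rescaled, limma called 144 higher and 264 lower genes.

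In the list of fatty acid uptake and oxidation, 36 genes were tested and 4 passed as higher and 0 as lower (median 0.23), against 0.487% higher calls over all genes. With GC-corrected values 11 passed as higher and 0 as lower (median 0.27), against 1.59%. TAC SFA 2 had the lowest value of the 4 TAC libraries for 4 of the 4 called genes and for 18 of the 36. Decr1, a reductase that oxidation of polyunsaturated fatty acids needs, had 2747.8 and 2710.5 in TAC SFA-EAA, against 1953.6 and 1651.7 in TAC SFA, and 3746.4 and 3582.1 in sham SFA-EAA, against 2661 and 2763.7 in sham SFA. The diets did not overlap (log2 difference 0.52, SE 0.08, adjusted p = 0.0422). Acot13, an acyl-CoA thioesterase, had 0.42 (adjusted p = 0.0472). Etfa and Etfdh, which pass electrons from acyl-CoA dehydrogenases to the respiratory chain, had 0.43 and 0.47 (both adjusted p = 0.0494). These electron carriers also serve the dehydrogenases of branched-chain amino acids. All 4 passed after GC correction, Etfdh at 0.3. Acaa2, the mitochondrial thiolase that ends each round of oxidation, passed only with GC-corrected values (0.54, adjusted p = 0.00558), against 0.4 as deposited (adjusted p = 0.0809).

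Of 30 tested genes that degrade branched-chain amino acids, 3 passed as higher and 0 as lower, against 0.487% higher calls over all genes, 24 were positive, and the median was 0.24, 0.33 in TAC and 0.23 in sham hearts. With GC-corrected values 6 passed as higher and 0 as lower (median 0.22), against 1.59%. TAC SFA 2 had the lowest value of the 4 TAC libraries for 2 of the 3 called genes and for 19 of the 30. Aldh6a1, the methylmalonate semialdehyde dehydrogenase of valine degradation (ENSMUSG00000021238, chromosome 12, 84430723 to 84450950), had 1226.2 and 1487.4 in TAC SFA-EAA, against 786.5 and 763.9 in TAC SFA, and 1566.4 and 1733.8 in sham SFA-EAA, against 1148.5 and 1140.1 in sham SFA. The values did not overlap, and the level was 1.58-fold higher (log2 difference 0.66, SE 0.09, adjusted p = 0.0254; 0.45 and adjusted p = 0.00754 after GC correction). Ppm1k, whose phosphatase switches on the dehydrogenase complex of branched-chain keto acids, had 460.7 and 556.6 in TAC SFA-EAA, against 290.3 and 297.4 in TAC SFA, and 626.8 and 639 in sham SFA-EAA, against 447.4 and 532.3 in sham SFA. Its SFA-EAA values were higher without overlap in both operations (log2 difference 0.58, SE 0.1, adjusted p = 0.0442). Dbt, the transacylase core of that dehydrogenase, had 0.55 (adjusted p = 0.0431). Neither Ppm1k nor Dbt passed after GC correction (0.29 and 0.32, adjusted p = 0.0894 and 0.0799). Ppm1k then had 0.04 in sham hearts and overlapped between the diets. Bckdhb, a subunit of the first enzyme of the complex, passed with GC-corrected values (0.49, adjusted p = 0.0203) and not as deposited (0.45, adjusted p = 0.0627), and Hsd17b10 of isoleucine degradation did likewise (0.47 and 0.41, adjusted p = 0.00764 and 0.0526). The partner subunit gene Bckdha and the transaminase gene Bcat2 had -0.34 and -0.01 as deposited and 0.1 and 0.19 after GC correction, and passed in neither fit (adjusted p = 0.424 and 0.969 as deposited).

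**Figure D4:**
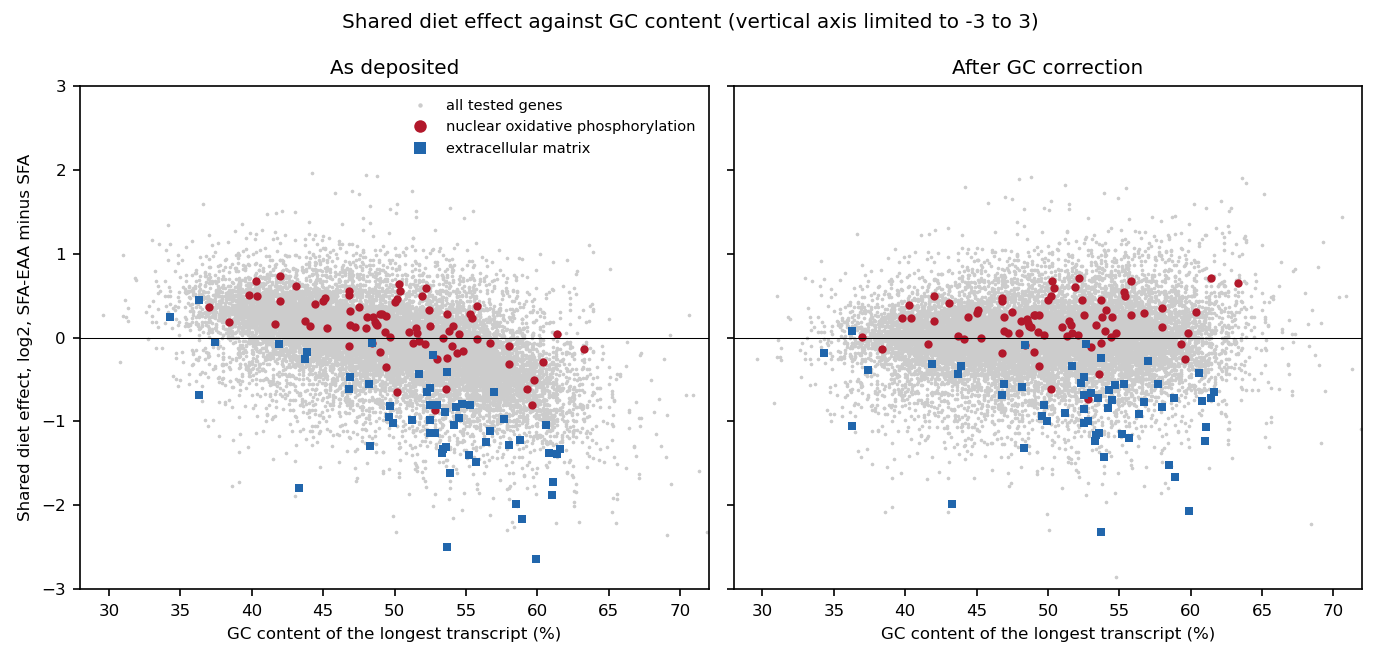
Shared diet effect on the log2(value + 1) scale (vertical axis) against the GC content of the longest transcript in percent (horizontal axis), as deposited (left) and after GC correction (right), for all tested genes in grey, nuclear genes of oxidative phosphorylation in red circles and matrix genes in blue squares. The grey cloud slopes on the left (rho -0.73) and is level on the right (rho -0.02), while the medians of the matrix list (-0.98 and -0.75) lie below and those of the oxidative phosphorylation list (0.14 and 0.2) above 0 in both. 12 genes lie outside the left and 10 outside the right axes.

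The largest higher effects belonged to genes of varied functions. Kcnv2, a silent potassium channel subunit that alters the channels it joins (ENSMUSG00000047298, chromosome 19, 27322588 to 27337179), had 44 and 35.7 in TAC SFA-EAA, against 9.44 and 7.45 in TAC SFA, and 63.8 and 72.4 in sham SFA-EAA, against 43.8 and 44 in sham SFA. The diets did not overlap, the level was 2.58-fold higher (log2 difference 1.37, SE 0.19, adjusted p = 0.0266), and the difference was 2.11 in TAC and 0.62 in sham hearts. Hnmt, which methylates and so inactivates histamine (ENSMUSG00000026986, chromosome 2, 24002910 to 24049394), had 43.1 and 69.8 in TAC SFA-EAA, against 21.7 and 24.9 in TAC SFA, and 123 and 99.6 in sham SFA-EAA, against 56.1 and 49.5 in sham SFA. It was 2.19-fold higher (SE 0.19 on the log2 scale, adjusted p = 0.0448), by 1.2 on the log2 scale in TAC and 1.06 in sham hearts. Ces1d lies on chromosome 8 (ENSMUSG00000056973, 93166068 to 93197838) and encodes an esterase that cleaves triglycerides. It had 425.6 and 415.6 in TAC SFA-EAA, against 154.8 and 99.2 in TAC SFA, and 769 and 853.4 in sham SFA-EAA, against 687 and 601.7 in sham SFA. Its 2.06-fold higher level (log2 difference 1.04, SE 0.14, adjusted p = 0.0254) joined a difference of 1.75 in TAC to one of 0.33 in sham hearts. Slc40a1, the iron exporter ferroportin, had 65.7 and 90.7 in TAC SFA-EAA, against 39.8 and 42 in TAC SFA, and 146.7 and 155.7 in sham SFA-EAA, against 71.3 and 87.3 in sham SFA, a difference of similar size in both operations (log2 difference 0.92, SE 0.15, adjusted p = 0.0431). Nampt, the rate-limiting enzyme of NAD salvage (ENSMUSG00000020572, chromosome 12, 32820335 to 32853369), had 1061.9 and 1245.6 in TAC SFA-EAA, against 672.8 and 573.9 in TAC SFA, and 1480.9 and 1393.1 in sham SFA-EAA, against 888.6 and 936.5 in sham SFA. It was 1.71-fold higher without overlap (log2 difference 0.77, SE 0.09, adjusted p = 0.0254). All 5 passed after GC correction, Nampt at 0.5.

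The other genes of this set were Tmod4, a tropomodulin that caps actin filaments in muscle, at 0.86 (adjusted p = 0.0431), Cep128, a centriole protein gene, at 0.85 (adjusted p = 0.0494), and Rpl22l1, a paralog of a ribosomal protein, at 0.81 (adjusted p = 0.049). Fam134b, a receptor for autophagy of the endoplasmic reticulum, had 1905.4 and 1977.9 in TAC SFA-EAA, against 1060.7 and 1030 in TAC SFA, and 1813.2 and 1771.9 in sham SFA-EAA, against 1105.2 and 1313.6 in sham SFA (log2 difference 0.73, SE 0.08, adjusted p = 0.0254). Thnsl1, a threonine synthase-like gene, had 0.74 (adjusted p = 0.0494) and did not pass after GC correction (adjusted p = 0.063). With GC-corrected values the rule added 6 genes that had not passed as deposited. Grhl2, an epithelial transcription factor, came first at 1.63, with values of 13.3 and 6.12 in TAC SFA-EAA, against 0.94 and 0.72 in TAC SFA, and 18.8 and 14 in sham SFA-EAA, against 14 and 6.3 in sham SFA, and Scgb1c1, a secretoglobin gene, had 1.01 (GC-corrected adjusted p = 0.0419 and 0.0173). Neither passed as deposited (1.59 and 0.86, adjusted p = 0.0661 and 0.0668). The others were Fastkd5, which acts on mitochondrial transcripts, at 0.84 (GC-corrected adjusted p = 0.0417, 0.0559 as deposited), Fbp2, the muscle fructose bisphosphatase, at 0.86, Gfra1, a receptor for glial cell line-derived neurotrophic factor, at 0.9, and Kcnd2, a potassium channel of the transient outward current, at 0.8. Their GC-corrected adjusted p-values were 0.0109 for Fbp2, 0.0347 for Gfra1 and 0.0325 for Kcnd2, and none passed as deposited (adjusted p = 0.0559, 0.069 and 0.0578). Of 30 genes of adult contraction and calcium handling, Kcnv2, the inward rectifier gene Kcnj3 (0.59, adjusted p = 0.0481) and Trdn, triadin of the calcium release complex (0.66, adjusted p just under 0.05), passed as higher and 0 as lower, against 0.487% higher calls over all genes, and the median of the list was 0.06. After GC correction Trdn passed at 0.3. Kcnj3 overlapped in sham hearts. It passed after GC correction at 0.42 (adjusted p = 0.024), with opposite signs of 0.91 in TAC and -0.07 in sham hearts. Named after their values had been seen, Corin, the protease that activates atrial natriuretic peptide, Ephx2, the soluble epoxide hydrolase, and Maob, monoamine oxidase B of the outer mitochondrial membrane, had 0.46, 0.4 and 0.59 (adjusted p = 0.0494, 0.0494 and 0.0431), and all 3 passed after GC correction. Ghr, the growth hormone receptor gene, had 0.46 (adjusted p = 0.0494) and did not pass after it (0.2, adjusted p = 0.128).

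Of 79 cytosolic ribosomal protein genes, 4 passed as higher and 0 as lower, against 0.487% higher calls over all genes, with a median of 0.06. After GC correction 23 and 0 passed, against 1.59% higher calls over all genes, with a median of 0.16. Here too the trend with gene length was not corrected. The 4 were Rps24 (0.55), Rpl26 (0.53), Rpl5 (0.48) and Rps15a (0.51), with adjusted p = 0.0472, 0.0481, 0.049 and 0.0494, and after GC correction Rps24 had 0.36, Rpl26 0.86 and Rpl5 0.27. These genes have many near-identical pseudogene copies with which reads can be shared, so their values are uncertain. Of 53 mitochondrial ribosomal protein genes, Mrpl1 passed as higher (0.61, adjusted p = 0.0481; 0.37 after GC correction) and 0 as lower, against 0.487% higher calls over all genes. Mrpl1 was also the only one to pass after GC correction, against 1.59% higher calls over all genes.

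Unlike branched-chain degradation, the other lists of amino acid handling and sensing described here gave no calls as deposited. Of 31 tested genes that degrade other amino acids, 0 passed in limma. Higher without overlap in both operations were 11 of them and lower 0, against 10.3% and 9.67% of all tested genes. After GC correction 3 passed as higher (Gcdh, Aldh4a1 and Got1) and 0 as lower. By limma, 0 of 31 amino acid transporters, 0 of 22 integrated stress response genes, 0 of 20 aminoacyl-tRNA synthetases and 0 of 32 genes of mTORC1 and amino acid sensing passed, with medians of -0.11, -0.25, -0.02 and -0.03. At an unadjusted p under 0.05 there were 5, 9, 6 and 9 of them, against 3808 of 16432 over all tested genes. Their GC-corrected calls were 0, 1, 0 and 2, all higher, against 1.59% higher calls over all genes. Slc7a5, a carrier of leucine and other large neutral amino acids, had 24.7 and 29 in TAC SFA-EAA, against 51.2 and 56.7 in TAC SFA, and 26.3 and 20.1 in sham SFA-EAA, against 32.9 and 20.9 in sham SFA. It was lower in TAC hearts but overlapped in sham hearts, and its log2 difference of -0.59 did not pass (adjusted p = 0.151). After GC correction it was -0.26, with 0.17 in sham hearts. Slc43a2, another carrier of such amino acids, had 113.9 and 114.4 in TAC SFA-EAA, against 125.1 and 141.6 in TAC SFA, and 80.5 and 78.5 in sham SFA-EAA, against 126.6 and 119.3 in sham SFA. It did not overlap in either operation but did not pass either (log2 difference -0.42, adjusted p = 0.0808), and after GC correction it had -0.26 and overlapped. Sesn2, a leucine sensor, Pycr1, an enzyme of proline synthesis, and the alanyl-tRNA synthetase gene Aars had -0.88, -1.32 and -0.47 without passing (adjusted p = 0.0784, 0.0559 and 0.0658), each without overlap. After GC correction Sesn2 and Aars had -0.39 and -0.14, with differences in sham hearts of 0.18 and 0.02, and both overlapped. Of 19 clock genes 0 passed in limma as deposited, with 6 at an unadjusted p under 0.05, and after GC correction Tef and Nr1d2 passed as higher (0.68 and 0.48, adjusted p = 0.0162 and 0.0466) and Arntl, which encodes the activator BMAL1, as lower (-0.97, adjusted p = 0.0181). Over all genes the GC-corrected calls were 1.59% higher and 1.02% lower.

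**Figure D5:**
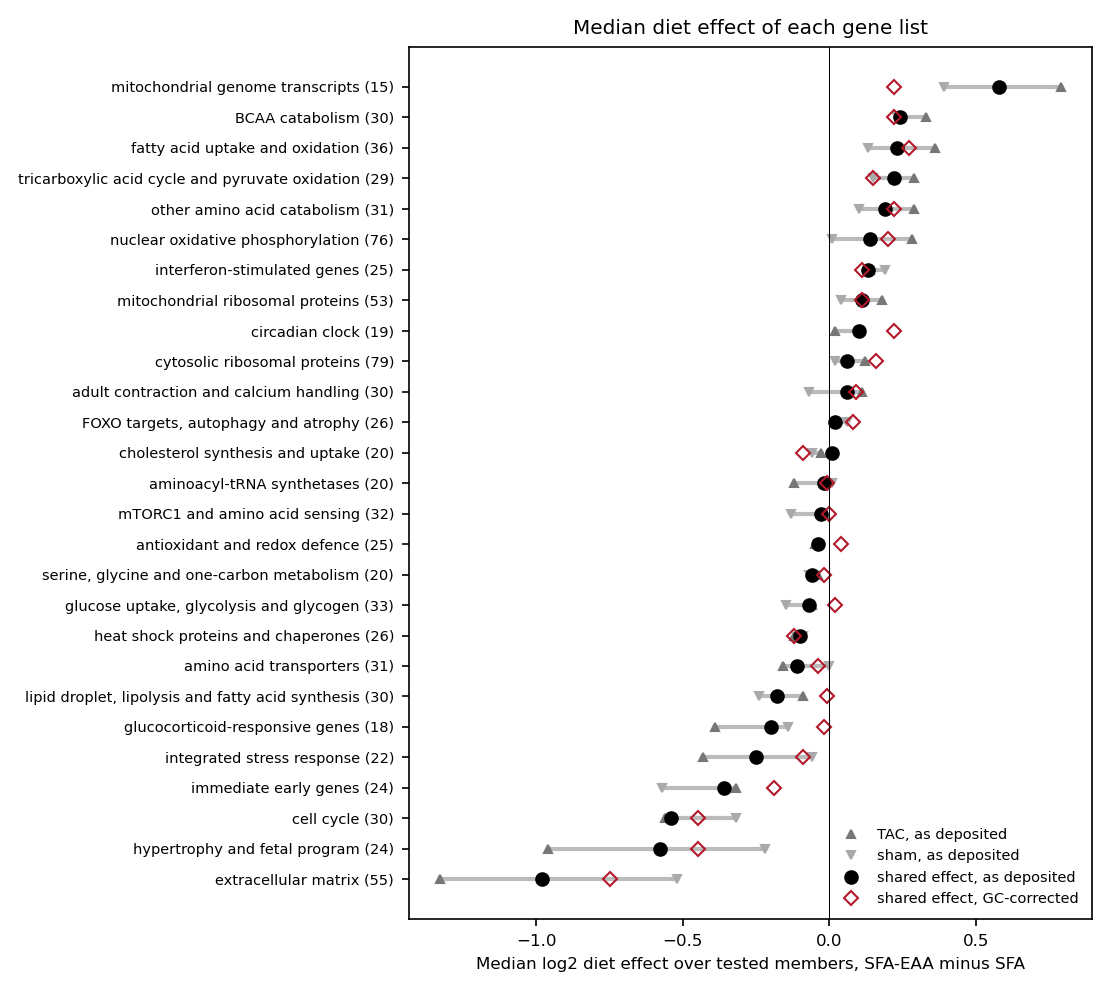
Median log2 difference between SFA-EAA and SFA (horizontal axis) over the tested members of each of 27 gene lists (vertical axis, number of tested genes in parentheses), as the shared effect as deposited (black circles) and after GC correction (open red diamonds), and as the effect in TAC (triangles up) and in sham hearts (triangles down). The matrix list lies lowest, at -0.98 and -0.75, and the mitochondrial genome highest as deposited, at 0.58.

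Whether the diet effect differed between the operations was tested as an interaction. Limma called 0 of 16432 genes, with 902 at an unadjusted p under 0.05, and 0 after GC correction, with 1323. As deposited it called 139 without TAC SFA-EAA 2, and 0 without any other single library. With GC-corrected values it called 102 without TAC SFA-EAA 2, 16 without TAC SFA 1 and 1 without TAC SFA-EAA 1. The larger differences of many called genes in TAC hearts, given above, were therefore not called as differing from those in sham hearts, which does not show that the operations responded alike.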

How the data were processed

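Polyadenylated left ventricular RNA gave 8 libraries made with a stranded kit, per the labels. The deposited table holds signal values per gene that the authors had normalized between libraries; the submitters' processing notes name STAR 2.5, edgeR and GRCm38. Which counter, annotation release and strand setting were used is not stated there, and overlapping antisense genes cannot be told apart. The values are not whole numbers, and the read depth behind them is unknown. No count model was therefore run. Of 49671 genes, 29103 were at 0 in every library, and the 16432 that reached 1 in 2 or more libraries were tested.

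Log2(value + 1) was fitted with limma 3.58.1 (R 4.3.3, trended prior) on 4 group means with 4 residual degrees of freedom. The shared effect is the mean of SFA-EAA minus SFA in TAC and in sham hearts, and the interaction is their difference. Adding 1 understates the fold changes of low genes. P-values were adjusted over all tested genes by Benjamini-Hochberg, and "passed" or "called" means an adjusted p under 0.05. The GC correction subtracted, library by library, a smooth loess fit (span 0.3) of the deviations against the GC content of the longest GENCODE M21 transcript, available for 99.8% of tested genes. Trends with GC used genes with a mean of at least 50. The fits were tested on simulated data with independent noise in each gene, with and without a GC trend that followed the diet. GC trends that differ between libraries of a diet, as in TAC SFA-EAA 1, and shifts of many genes in a single library were not simulated. That test therefore does not cover them. Figures were drawn with matplotlib 3.10.9, and tables were read with pandas 2.3.3 and numpy 2.4.6 under Python 3.11.15. Coordinates are those of the deposited table, and promoter sequences are from RefSeq.

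Members, gene lists and tests were chosen with earlier results of these data known. Genes are named by a rule of up to 12 called genes per direction with the largest effects among those with a mean of 5 or more and separate diets in both operations, in each of the fits as deposited and GC-corrected. The rule adds the 4 smallest p-values of each list and 30 panel genes, and it left out predicted gene models. All others, including further list members, were named after their values had been seen. Alternatives to the pseudocount, filter, scaling, model and set of libraries are given in the closing section.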

Additional observations from a re-analysis of the deposited data

Results flagged for a closer look

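In 5 genes, those with the smallest interaction p-values and a mean of at least 5, the diet difference had opposite signs in TAC and sham hearts without overlap between the diets in either, and the difference between the operations itself did not pass in limma. The diet difference in TAC minus that in sham hearts, on the log2 scale, was -3.01 for Zbtb16, a glucocorticoid-induced transcription factor (interaction adjusted p = 0.306). It was -1.96 for the growth factor gene Tgfb2, 1.17 for Hopx, a homeodomain-only cofactor, 1.1 for Tnfaip2, a gene induced by tumour necrosis factor, and -0.97 for Slc43a3, a purine base transporter (interaction adjusted p = 0.698 for each). Opposite signs without overlap occurred in 760 of the 16432 tested genes.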

How the results depend on the processing

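Calls of the shared effect moved with the processing, and the cause was not tested. Against 80 higher and 119 lower genes, limma called 16 and 41 with a pseudocount of 0.25, 9 and 33 after quantile normalization, 138 and 135 after median-of-ratios scaling, 261 and 370 with a mean of at least 5, 144 and 264 without mitochondrially encoded genes, 258 and 415 with library weights, 300 and 506 in an additive model, and 262 and 168 after GC correction. It called 0 and 0 with no filter (3995 at an unadjusted p under 0.05) or a minimum fold of 1.2 (1413). The same replicate numbers did not pair the libraries (correlations between -0.32 and 0.06), and with the number as a replicate block calls were 0 and 0 (3382 unadjusted), or 184 and 124 with GC correction, where the interaction gave 3. Leaving out 1 library gave 0 to 1433 higher and 0 to 2149 lower genes as deposited, 4 to 518 and 9 to 520 with GC correction, and 0 to 139 interaction calls. Chosen after seeing the data, GC and length correction gave 270, 180 and 1 interaction call, and leaving out both libraries of high Myl7 gave 0 and 0 as deposited (1298 unadjusted) and GC-corrected (1467).

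Some list medians moved by more than the spread between libraries, and those of matrix, fibroblast, hypertrophy, fatty acid and branched-chain genes kept their sign in every alternative. In the order GC and length correction, without both libraries of high Myl7, and both GC correction and that omission, the median was -0.69, -0.7 and -0.55 for matrix, 0.07, 0.34 and -0.01 for mitochondrial genome (0.22 with GC correction, with or without the replicate block), 0, -0.01 and 0.02 for transporter, -0.14, -0.17 and -0.1 for stress response (-0.09 with GC correction, with or without the block, and -0.15 after quantile normalization), and 0.25, 0.25 and 0.26 for clock genes. It was -0.4 for hypertrophy genes with GC and length correction, -0.25 for fibroblast markers with GC correction without both libraries, 0.27 for branched-chain genes after median-of-ratios scaling, and 0.2 and 0.19 for them without both libraries as deposited and GC-corrected. It was 0.05 for tRNA synthetases without both libraries, and for mTORC1 genes 0.03 after quantile normalization, and 0.01 and 0 without both libraries as deposited and GC-corrected. Over all omissions of 1 library, with and without GC correction, medians ran from -1.12 to -0.62 for matrix genes, -0.73 to -0.28 for fibroblast markers, -0.72 to -0.39 for hypertrophy, 0.18 to 0.33 for fatty acid, 0.2 to 0.26 for branched-chain, 0.04 to 0.24 for oxidative phosphorylation, -0.02 to 0.22 for cytosolic ribosomal, 0.1 to 0.7 for mitochondrial genome, -0.18 to 0.02 for transporter, -0.35 to -0.01 for stress response, -0.05 to 0.03 for mTORC1 and -0.05 to 0.33 for clock genes.

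Bcat2 turned positive at 0.01 (quantile), 0.02 (median-of-ratios, and without mitochondrial genes), 0.19 (GC correction, with or without the block), 0.23 (GC and length), 0.11 (GC without both libraries) and ran from -0.13 to 0.25 without 1 library, as deposited or GC-corrected. Bckdha did so at 0.1 (GC correction, with or without the block), 0.04 (GC and length), 0.03 (GC without both libraries) and ran from -0.66 to 0.25 without 1 library. Dcn did so at 0.12 without both libraries and ran from -0.59 to 0.12 without 1 library. No other gene whose shared effect is given above reversed in any alternative. Genes named only for their interaction did reverse with GC correction. The shared effect went from -0.18 to 0.21 for Tnfaip2, from 0.01 to -0.08 for Hopx and from 0.06 to -0.01 for Slc43a3. So did some genes of the naming rule that are not described above, such as Per1 (-0.24 and 0.29).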
